A study of Mus musculus with 8 samples.

Results

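Mural cells are the pericytes and smooth muscle cells that wrap blood vessels, and 10 genes, 9 that mark these cells and Pdgfb, were followed in mouse retina under choroidal neovascularization (CNV), the growth of choroidal vessels towards the retina. The genes were picked by symbol in the deposited count table, Rgs5, Cspg4, Des, Kcnj8, Abcc9, Notch3, Acta2, Myh11, Pdgfrb and Pdgfb, and all 10 were found among its 25477 genes. All 10 passed the filter on low counts. Polyadenylated RNA was sequenced from 8 samples, 4 with the genotype given as PD-L1 knockout and 4 given as control, and all 8 are named for CNV. The titles read KO-CNV for the knockouts and WT-CNV, for wild type, for the controls. PD-L1, encoded by Cd274, is a surface ligand that restrains immune cells. The knockout is described only as a mouse line, and its allele, the strain, age and sex of the animals, the way CNV was induced and whether choroid stayed with the retina are all left unstated in the labels. Since separate animals are not named either, p-values reflect the spread between these 8 samples alone, which may be technical.

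Endothelial cells secrete the PDGF-B homodimer, encoded by Pdgfb, and pericytes carry its receptor PDGFRB. This signal recruits pericytes to growing vessels and keeps them there, and retinal capillaries are known for a dense pericyte cover. Pericytes are usually recognised by Pdgfrb, Cspg4 (NG2), Rgs5 and the potassium channel pair Kcnj8 and Abcc9, and arterial smooth muscle by the contractile proteins of Acta2 and Myh11. Notch3 is the Notch receptor of mural cells, and Des encodes their intermediate filament desmin.

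The libraries held 31743404 to 36438248 counts each, so that 1 count was worth 0.0280 to 0.0314 CPM (counts scaled to a common library size). Cd274 averaged 0.335 ± 0.0758 CPM over the knockouts against 4.48 ± 0.544 CPM over the controls (SD, n = 4 each), with a log2 fold change of -3.73 (SE 0.27, edgeR adjusted p = 1.57e-05), so each library carried the level its label implies. Control 4 stood apart from the other controls: on the first principal component, which held 41.8% of the variance, it lay at -12.01 among the knockouts (-18.20 to -9.15) while controls 1, 2 and 3 lay at 8.92, 31.46 and 25.61. Transcripts of the lens summed to 1559 to 5583 CPM in knockout 3 and controls 2 and 3 and to 4.10 to 40.7 CPM in the other 5 libraries. Both facts touch the results below, and values without these libraries, or with the lens level as a covariate, are given beside the genes they move most. Over all genes, edgeR called 430 with all 8 libraries, 264 with the lens covariate and 15 without the 3 lens-rich libraries. Of 5 sex-linked genes looked for, 3 were in the count table and 2 could be tested. Of these 2, 1 was called higher in the knockout by edgeR and 1 had a negative log2 fold change. The median of these 2 log2 fold changes was 4.16, so the called gene lay above 4.16, a larger change in size than that of Cd274. The 3 summed to 2746 to 3473 CPM in the knockouts and 3213 to 5149 CPM in the controls. Whether sex differed between the groups, and its part in the results below, was not tested.

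None of the 10 genes passed the test between knockout and control once p-values were adjusted over all genes. After adjustment over all 16861 genes tested, edgeR called 0 of the 10, as did DESeq2, limma-voom and limma-trend on the FPKM, while 2.55% of all tested genes were called by edgeR. At an unadjusted p under 0.05 there were 2 of the 10, Rgs5 and Pdgfb, against 21.3% of all tested genes. For 0 of the 10 were all knockouts above or all below the controls, which held for 11% of the tested genes (5.19% above, 5.78% below). The log2 fold change, knockout over control, was positive for 7 and negative for 3, with a median of 0.24 against 0.00 over all genes tested. In whole retina, a difference in the number of mural cells and a difference in RNA per cell cannot be told apart.

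**Figure D1:**
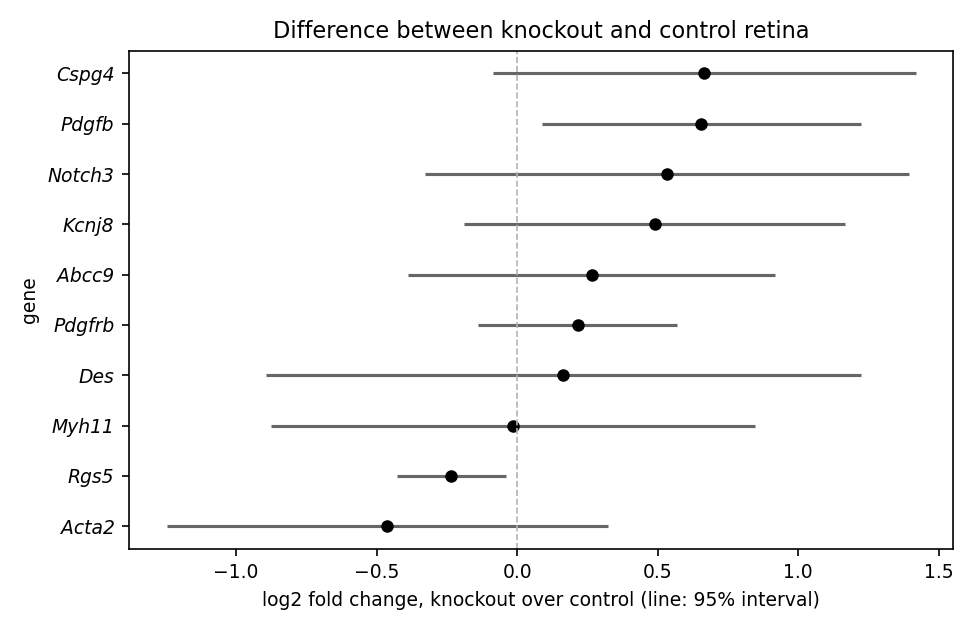
Log2 fold change of each of the 10 genes, knockout over control, with its 95% interval (horizontal line) from the edgeR fit of 4 knockout and 4 control libraries. The estimates run from -0.46 for Acta2 to 0.67 for Cspg4, and only the intervals of Pdgfb and Rgs5, before adjustment over all genes, leave out 0.

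The genes differed widely in level per length of transcript. In FPKM (counts scaled by gene length and library total) over the 8 libraries, Rgs5 led at 13.4 ± 1.45 (SD, n = 8), followed by Pdgfrb at 1.83 ± 0.343, Acta2 at 1.39 ± 0.637 and Kcnj8 at 0.636 ± 0.216. Pdgfb was at 0.474 ± 0.155, Abcc9 at 0.356 ± 0.120, Myh11 at 0.240 ± 0.109 and Notch3 at 0.185 ± 0.0779 FPKM. Cspg4, at 0.107 ± 0.0377, and Des, at 0.101 ± 0.0375 FPKM, were lowest. The lowest Rgs5 value, 11.8 FPKM, lay above the highest Pdgfrb value, 2.21 FPKM. From Pdgfrb downwards, each gene's range over the 8 libraries overlapped that of the next gene in this order. Of the 9 mural markers only Rgs5 was thus abundant, and Des, with 4 to 16 counts per library, was near the limit of what these libraries can measure.

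**Figure D2:**
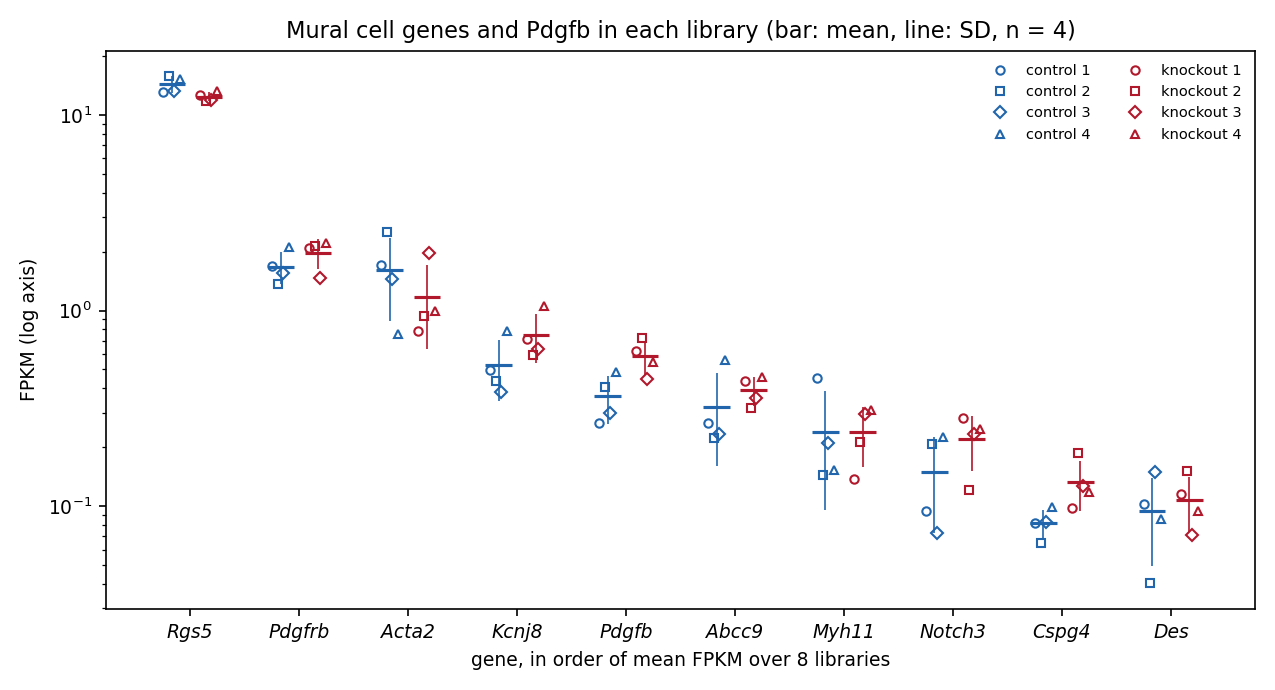
FPKM of the 10 genes on a log axis, in order of their mean, with a symbol for each library, the mean as a short bar and the SD as a vertical line (blue control, red knockout, n = 4 each). Rgs5 sits between 11.8 and 15.8 in every library, while Acta2 spans 0.756 to 2.52 and overlaps between the groups.

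The ligand of the PDGF pair was higher in most knockout libraries. Pdgfb (Entrez gene 18591, GRCm38.p6 chromosome 15, 79995865 to 80024614) was at 3.05, 3.68, 2.32 and 2.74 CPM in knockouts 1 to 4 and at 1.35, 2.10, 1.54 and 2.48 CPM in controls 1 to 4. In 15 of the 16 pairings of a knockout with a control library the knockout was higher, and the groups overlapped through knockout 3 and control 4 alone. Its log2 fold change was 0.66 (SE 0.26, 95% interval 0.09 to 1.22, edgeR adjusted p = 0.180), so it missed the threshold. Without control 4 it was 0.83, with an adjusted p of 0.0531, in a fit that called 18.7% of all genes and put 33.1% of them, and 6 of the 10 members, at an unadjusted p under 0.05. With 1 library left out it ran from 0.52 (knockout 2) to 0.83, and it was 0.56 with the lens covariate (adjusted p = 0.312) and 0.72 without the 3 libraries rich in lens transcripts (adjusted p = 0.694). The gene rests on 43 to 127 counts per library.

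The receptor moved less. Pdgfrb (chromosome 18, 61045127 to 61085067), the tyrosine kinase receptor that PDGF-B activates on mural cells, was at 12.2, 13.1, 9.18 and 13.4 CPM in knockouts 1 to 4 and at 10.3, 8.45, 9.58 and 12.9 CPM in controls 1 to 4. Knockout 3 was lower than controls 1, 3 and 4, and control 4 was higher than knockouts 1 and 3. This gave a log2 fold change of 0.21 (SE 0.16, interval -0.14 to 0.57, edgeR adjusted p = 0.465), an interval that holds folds from 0.909 to 1.48. It was 0.34 without control 4 (adjusted p = 0.126) and 0.32 without knockout 3, but 0.14 without control 2 and 0.056 with the lens covariate (adjusted p = 0.863). Csf1r, a receptor gene of microglia, lies 15536 bases away on the same strand, and it rose, with a log2 fold change of 1.03 (SE 0.15, edgeR adjusted p = 0.00478).

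Set against each other within a library, the ratio of Pdgfb to Pdgfrb FPKM was 0.299, 0.337, 0.304 and 0.246 in knockouts 1 to 4 and 0.157, 0.299, 0.193 and 0.231 in controls 1 to 4. Control 2 alone lay in the knockout range, above knockout 4, and the other controls lay below every knockout. Endothelial transcripts were also higher in the knockout samples on the whole: 15 of 15 endothelial markers had positive log2 fold changes (median 0.55), against 49.8% of all tested genes. Vwf, the clotting factor stored in endothelium, was the 1 of 15 that rose, while 1.2% of all tested genes were called higher. The summed level of the 15 markers was 299 to 323 CPM in the knockout and 220 to 308 CPM in the control, with control 4 the highest control. Relative to this endothelial sum, control 2 lay above knockouts 3 and 4, so the overlap of the groups was wider than in CPM. The part of the endothelial level in the Pdgfb difference was not tested.

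The other genes of the PDGF system did not pass. Of 22 ligands, receptors and signalling partners tested, Pdgfb and Pdgfrb among them, 0 rose and 0 fell, 14 were positive, and the median was 0.07. Rasa1, a Ras inhibitor that docks on the activated receptor, had the smallest p, at 81.8 ± 6.16 against 98.4 ± 5.24 CPM (log2 fold change -0.27, SE 0.08, edgeR adjusted p = 0.0964). Src, a kinase recruited by the receptor, was at 0.31 (SE 0.10, adjusted p = 0.120). Rasa1 passed in DESeq2 (adjusted p = 0.0455) and Src without control 4 (edgeR adjusted p = 0.00723), while Src was at 0.19 without the lens-rich libraries. DESeq2 called 1296 genes against 430 in edgeR, and the fit without control 4 called 18.7% of all genes.

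Pericyte markers pointed in different directions. Rgs5 (Entrez gene 19737, chromosome 1, 169655501 to 169695813), which speeds the shut-off of G protein signals in pericytes, was at 55.1, 53.8, 55.1 and 59.7 CPM in knockouts 1 to 4 and at 59.3, 73.0, 60.9 and 70.1 CPM in controls 1 to 4. In 1 of 16 pairings the knockout was higher, knockout 4 over control 1. The log2 fold change was -0.23 (SE 0.09, interval -0.43 to -0.04, edgeR adjusted p = 0.163), with 1856 to 2370 counts per library, and it lay between -0.28 and -0.17 in 19 alternative fits. Its interval puts the knockout level at 0.743 to 0.972 of the control. Rgs5 also varied least among the 10, with an SD of log2 CPM over the 8 libraries of 0.162, against 0.206 for the median tested gene of at least 1 CPM.

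Cspg4 (chromosome 9, 56865104 to 56899870), the NG2 proteoglycan of the pericyte surface, leaned the other way. It was at 0.763, 1.51, 1.04 and 0.943 CPM in knockouts 1 to 4 and at 0.658, 0.534, 0.677 and 0.799 CPM in controls 1 to 4. Knockout 1 fell below control 4, and the other 15 pairings had the knockout higher. The log2 fold change of 0.67 (SE 0.35, interval -0.09 to 1.42, edgeR adjusted p = 0.289) rests on 17 to 52 counts per library and was 0.44 without knockout 2.

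Kcnj8 and Abcc9 encode the pore (Kir6.1) and the sulphonylurea receptor (SUR2) of the ATP-sensitive potassium channel of vascular mural cells. They lie side by side on the same strand of chromosome 6, Kcnj8 at 142564837 to 142571614 and Abcc9 at 142587862 to 142702766, with 16247 bases between them. Kcnj8 was at 1.75, 1.51, 1.65 and 2.66 CPM in knockouts 1 to 4 and at 1.25, 1.13, 0.985 and 2.01 CPM in the control, and Abcc9 at 3.39, 2.55, 2.94 and 3.66 against 2.13, 1.82, 1.91 and 4.55 CPM. Both were highest among the controls in control 4, which for Abcc9 was the highest of all 8 libraries. The log2 fold changes were 0.49 for Kcnj8 (SE 0.31, edgeR adjusted p = 0.383) and 0.26 for Abcc9 (SE 0.30, adjusted p = 0.642). Without control 4 they were 0.75 (adjusted p = 0.124) and 0.68 (adjusted p = 0.0697). Without the 3 libraries rich in lens transcripts, which leaves control 4 as 1 of 2 controls, they were 0.28 and -0.06. Kcnj8 was also at 0.28 without knockout 4, and Abcc9 at 0.14 without control 2, at 0.14 without control 3 and at 0.15 with the lens covariate. The ratio of Kcnj8 to Abcc9 FPKM was 1.90 ± 0.286 in the knockout and 1.71 ± 0.252 in the control (SD, n = 4 each), a difference below 1 SD. The subunits of the neuronal and endocrine form of the channel, Kcnj11 and Abcc8, had log2 fold changes of 0.29 (SE 0.15, adjusted p = 0.291; 0.19 without the lens-rich libraries) and 0.07 (adjusted p = 0.863), and 0 of the 4 subunits passed.

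Notch3 (chromosome 17, 32120820 to 32166896) was uneven within both groups. It was at 2.26, 1.01, 1.99 and 2.06 CPM in knockouts 1 to 4 and at 0.783, 1.76, 0.616 and 1.89 CPM in controls 1 to 4. Knockout 2 sat with the low controls 1 and 3, and controls 2 and 4 sat near the other knockouts. Its log2 fold change was 0.53 (SE 0.40, interval -0.33 to 1.39, edgeR adjusted p = 0.455), with 20 to 80 counts per library. With 1 library left out it ran from 0.30 (control 3) to 0.80 (control 4), with adjusted p-values of 0.742 and 0.197. Of 26 Notch ligands, receptors, processing enzymes and targets tested, Notch3 among them, 0 rose and 0 fell, 17 were positive and the median was 0.09. Notch1, the receptor of endothelium and progenitor cells, was at 35.5 ± 2.25 against 26.1 ± 4.92 CPM (log2 fold change 0.44, SE 0.13, edgeR adjusted p = 0.0814), with all 4 knockouts above all 4 controls. Jag1, a Notch ligand, was at 188 ± 17.5 against 241 ± 35.2 CPM (log2 fold change -0.36, SE 0.11, edgeR adjusted p = 0.110). Both passed without control 4 (edgeR adjusted p = 0.00660 for Notch1 and 0.00376 for Jag1) and in DESeq2 (adjusted p = 0.0302 and 0.0414). The fit without control 4 called 18.7% of all genes, and DESeq2 called 1296 genes against 430 in edgeR. Without the 3 lens-rich libraries Jag1 was at -0.19 (adjusted p = 0.803). Heyl, a Notch3 target in mural cells, was at -0.19 (edgeR adjusted p = 0.858).

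Des (chromosome 1, 75360292 to 75368579) was at 0.339, 0.463, 0.224 and 0.286 CPM in knockouts 1 to 4 and at 0.313, 0.126, 0.462 and 0.266 CPM in controls 1 to 4. The lowest and the second highest values were both controls. The log2 fold change of 0.16 had an interval from -0.89 to 1.22 (edgeR adjusted p = 0.876), so at this depth folds from 0.538 to 2.34 were not told apart. Leaving out control 2 or control 3 gave -0.075 or 0.47. Desmin is also the filament of skeletal muscle, and the defining muscle myosins Myh1 and Myh2 had 0 to 3 counts per library. The summed level of the 15 skeletal muscle markers, which the retina also makes in part, was 23.3 to 27.7 CPM in the knockout and 25.3 to 33.4 CPM in controls 1 to 4.

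The smooth muscle genes were uneven within both groups. Acta2 (Entrez gene 11475, chromosome 19, 34240336 to 34255585), the actin of contractile smooth muscle, was at 2.15, 2.66, 5.71 and 2.80 CPM in knockouts 1 to 4 and at 4.83, 7.25, 4.16 and 2.16 CPM in controls 1 to 4. Knockout 3 stood above the other knockouts and above controls 1, 3 and 4, and control 4 was level with the lowest knockout. The fold change, in log2, was -0.46 (SE 0.36, interval -1.25 to 0.32, edgeR adjusted p = 0.478). The value hung on single libraries: it was -0.85 without knockout 3 (adjusted p = 0.295), -0.70 without control 4 (adjusted p = 0.131) and -0.15 without control 2 (adjusted p = 0.871). With the lens level as a covariate it was -0.15 (adjusted p = 0.801), and without the 3 libraries rich in lens transcripts -0.45 (adjusted p = 0.816). Those 3 libraries and control 1 held the 4 highest Acta2 values. Fibroblast markers summed to 42.9 CPM in knockout 3 and to 30.9 to 37.1 CPM in the other knockouts, and to 45.5 and 44.1 CPM in controls 2 and 3 against 35.6 and 38.4 CPM in controls 1 and 4. The part of fibroblast transcripts in the Acta2 levels was not tested.

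The promoter window of Rgs5 is shown because Rgs5 is the mural marker of highest level and smallest spread here, and Acta2 is set beside it by its motif matches. The line gives the 250 bases before the Rgs5 start, 5′ to 3′ on the plus strand, from RefSeq on GRCm38.p6, chr1:169655251-169655500. Capitals mark TATATA, a form of the TATA box, at -30 to -25 from the start.
Rgs5: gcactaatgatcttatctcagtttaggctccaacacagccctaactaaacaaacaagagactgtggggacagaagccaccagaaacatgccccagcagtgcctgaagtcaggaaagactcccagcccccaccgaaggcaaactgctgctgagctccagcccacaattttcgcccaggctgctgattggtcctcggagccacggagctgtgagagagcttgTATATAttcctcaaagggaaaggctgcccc
The RefSeq table takes a start for Acta2 that lies inside the locus given above: 212 of the 250 window bases fall within the RefSeq gene and 217 in a GENCODE exon, so the whole window is not shown. It holds 2 matches, on both strands, to the CArG box with 1 of its A or T positions changed, CCCTATATGG at -84 to -75 and CCTTGTTTGG at -34 to -25 from that start. A CArG box is the site bound by serum response factor, and the Acta2 promoter is a textbook case of a gene with such boxes. The second match overlaps TGGGAA, the core of the site of the Notch partner RBPJ, at -27 to -22. Searched on both strands in 32536 distinct windows of this length, the changed CArG box was found in 7.23%, the exact box in 1.48%, TGGGAA in 21.6%, TATATA in 5.01% and GGGCGG, the GC box, in 33.0%. Windows were found for 7 of the 10 genes, not for Myh11, Pdgfrb and Pdgfb, and those of Abcc9 (250 bases) and Notch3 (6 bases) also reach into the RefSeq gene. The exact CArG box was in 0 of the 7, TGGGAA in Acta2 and Abcc9, and the GC box in Cspg4, Des, Abcc9 and Notch3. A match describes these letters and does not show binding.

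Myh11 (chromosome 16, 14194527 to 14292188), the heavy chain of smooth muscle myosin, did not follow Acta2. It was at 0.989, 1.59, 2.27 and 2.31 CPM in knockouts 1 to 4 and at 3.38, 1.099, 1.60 and 1.15 CPM in controls 1 to 4. Control 1 was the highest library for Myh11, while control 2, the highest for Acta2, was among the lowest 3. Its log2 fold change was -0.01 (SE 0.40, interval -0.87 to 0.85, edgeR adjusted p = 0.989) and went to 0.48 without control 1 (adjusted p = 0.536) and to -0.46 without the 3 lens-rich libraries (adjusted p = 0.864). Melanocyte markers, which choroid and pigmented tissue would bring, summed to 153 CPM in control 1 and to 36.4 to 83.4 CPM in the other controls, and to 39.6, 49.3, 74.7 and 86.6 CPM in knockouts 1 to 4. Knockouts 3 and 4, with the higher melanocyte sums of their group, had its higher Myh11 values, whereas control 2, at 83.4 CPM of melanocyte markers, had the lowest Myh11 of the controls. The part of this tissue in the Myh11 levels was not tested.

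**Figure D3:**
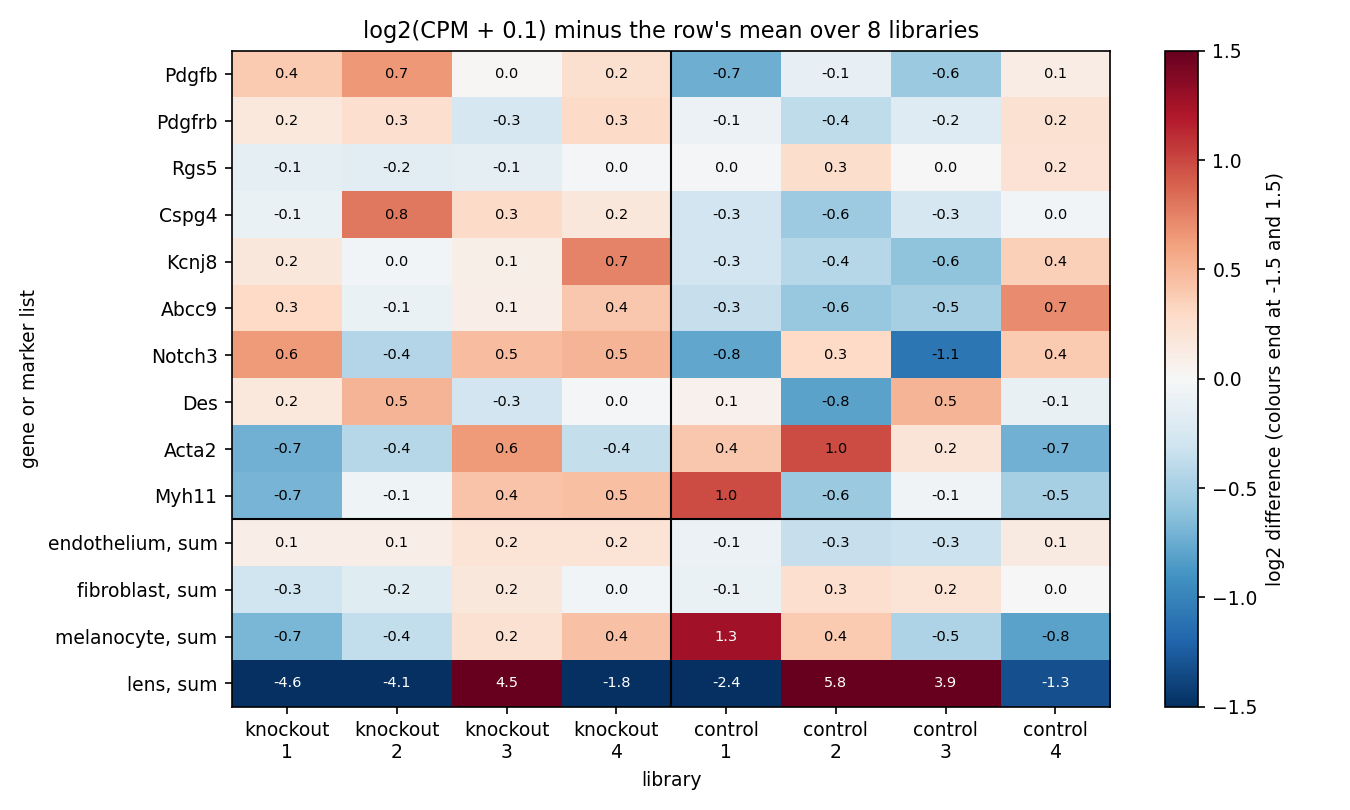
Log2(CPM + 0.1) of the 10 genes and of the summed endothelial, fibroblast, melanocyte and lens markers in each library, minus the mean of the row (red above, blue below). Control 4 looks like the knockouts for Kcnj8, Abcc9, Pdgfrb and Acta2, Acta2 is highest in control 2 and knockout 3, and Myh11 is highest in control 1, the library with most melanocyte transcript.

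Other contractile genes of smooth muscle did not pass. Of 30 listed, 23 were tested, 0 rose, 0 fell, 12 were positive and the median was 0.00. Tagln, which encodes the actin-binding protein SM22, had a log2 fold change of -0.37 (edgeR adjusted p = 0.495). Mylk, the myosin light chain kinase, had the smallest p, at 94.3 ± 11.3 against 109 ± 5.80 CPM (log2 fold change -0.21, SE 0.09, edgeR adjusted p = 0.224). Ramp1, a receptor partner that relaxes vessels in response to CGRP, was at -0.60 (SE 0.31, adjusted p = 0.281), and at -0.25 without the lens-rich libraries, -0.27 with the lens covariate and -0.34 without control 3. Cnn1, a calponin restricted to smooth muscle, had at most 11 counts in a library and was not tested. Myl9, the light chain of smooth muscle myosin, was at 6.34 against 6.72 CPM and had a log2 fold change of -0.09 (adjusted p = 0.850).

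Acta2 is 1 of 6 actin genes of very similar sequence, and reads that fit several of them may be divided or dropped in counting. Over the 8 libraries the cytoplasmic actins Actb and Actg1 averaged 123 and 116 FPKM, far above Acta2, while the skeletal Acta1, the cardiac Actc1 and the enteric Actg2 averaged 1.13, 0.611 and 0.0114 FPKM. Actb had a log2 fold change of 0.49 (SE 0.12, edgeR adjusted p = 0.0546) and Actg1 of 0.40 (SE 0.11, adjusted p = 0.0685), the opposite sign to Acta2. Both passed in some alternative fits, among them DESeq2 (adjusted p = 0.00617 and 0.0161), which called 1296 genes against 430 in edgeR. They were at 0.26 and 0.25 without the lens-rich libraries (edgeR adjusted p = 0.682 and 0.722). Of the 5 actin genes tested, 0 passed in the edgeR fit of all 8 libraries. In the GENCODE annotation of the same assembly, exons of antisense genes cover 5.86% of the exon bases of Des, 6.03% of Notch3 and 1.89% of Abcc9. The strand setting of the counting is not given, so reads there cannot be told apart.

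Further pericyte markers did not pass either. Of 22 listed, 19 were tested, 0 rose, 0 fell, 12 were positive and the median was 0.17. Foxd1, a transcription factor of pericyte progenitors that is also active in the retina, had the smallest p, with 7 to 67 counts per library. It was at 1.29 ± 0.543 against 0.496 ± 0.195 CPM (log2 fold change 1.37, SE 0.44, edgeR adjusted p = 0.109). All 4 knockouts lay above all 4 controls, as for 5.19% of all tested genes. Of the alternative fits only DESeq2 called it (adjusted p = 0.0412), and the edgeR adjusted p was 0.670 without the lens-rich libraries. Mcam, the adhesion molecule CD146 of pericytes and endothelium, was at 0.58 (SE 0.22, edgeR adjusted p = 0.167). Of 15 RGS proteins tested besides 3 too low to test, 0 passed, 11 were positive and the median was 0.06. Rgs4, another RGS gene found in mural cells, 45663 bases from Rgs5 on the opposite strand, was at -0.12 (edgeR adjusted p = 0.676). Rgs12 was at 0.47 (SE 0.17, edgeR adjusted p = 0.141), and at 0.30 without the lens-rich libraries. Without control 4 its edgeR adjusted p was 0.0182, in a fit that called 18.7% of all genes.

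Among ligands and receptors that recruit and hold pericytes, 2 of 24 rose and 0 fell, against 1.2% of all tested genes called higher; 17 were positive and the median was 0.26. S1pr3, a receptor for sphingosine 1-phosphate on vascular and glial cells, was at 41.2, 42.0, 44.8 and 49.1 CPM in knockouts 1 to 4 and at 29.6, 21.1, 26.6 and 32.3 CPM in controls 1 to 4. All 4 knockouts lay above all 4 controls, and the log2 fold change was 0.69 (SE 0.12; by edgeR, adjusted p = 0.0134). The call was lost without knockout 3 (edgeR adjusted p = 0.0578), control 3 (0.0557) or the 3 libraries rich in lens transcripts (0.319, at a log2 fold change of 0.52). Those fits called 108, 130 and 15 genes in all, against 430 with all 8 libraries. Tgfbr2, the type II receptor for TGF-beta, was at 6.84, 5.73, 8.03 and 7.80 CPM in knockouts 1 to 4 and at 4.92, 3.61, 4.28 and 4.08 CPM in controls 1 to 4 (log2 fold change 0.75, SE 0.17, edgeR adjusted p = 0.0429). Its groups did not overlap, but the call was lost when any single library other than control 4 was left out, at log2 fold changes of 0.69 to 0.83 (edgeR adjusted p from 0.0507 to 0.155). Those fits called 108 to 332 genes in all. The Tgfbr2 call was also lost without the lens-rich libraries (0.60, edgeR adjusted p = 0.628), with the lens covariate (0.0648), with the title number as a block (0.0653) and in limma-trend on the FPKM (0.0525). Markers of other cells moved in the same libraries. Of 10 microglia and macrophage markers 6 rose (median 0.98, summed level 126 to 166 CPM in the knockouts and 62.0 to 103 CPM in the controls). Of 9 markers of the retinal pigment epithelium 1 rose and all 9 were positive (median 0.96, 145 to 319 against 84.7 to 168 CPM). Among red blood cell genes 4 of 4 tested fell (1.68 to 4.03 against 10.1 to 14.5 CPM), while 1.35% of all tested genes were called lower. Their part in the S1pr3 and Tgfbr2 differences was not tested. Both receptors are made by several retinal cell types, and the source cells cannot be read from whole tissue. The ligands and receptors Angpt1, Angpt2 and Tek were at -0.17, 0.36 and 0.28 (edgeR adjusted p = 0.835, 0.549 and 0.692).

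**Figure D4:**
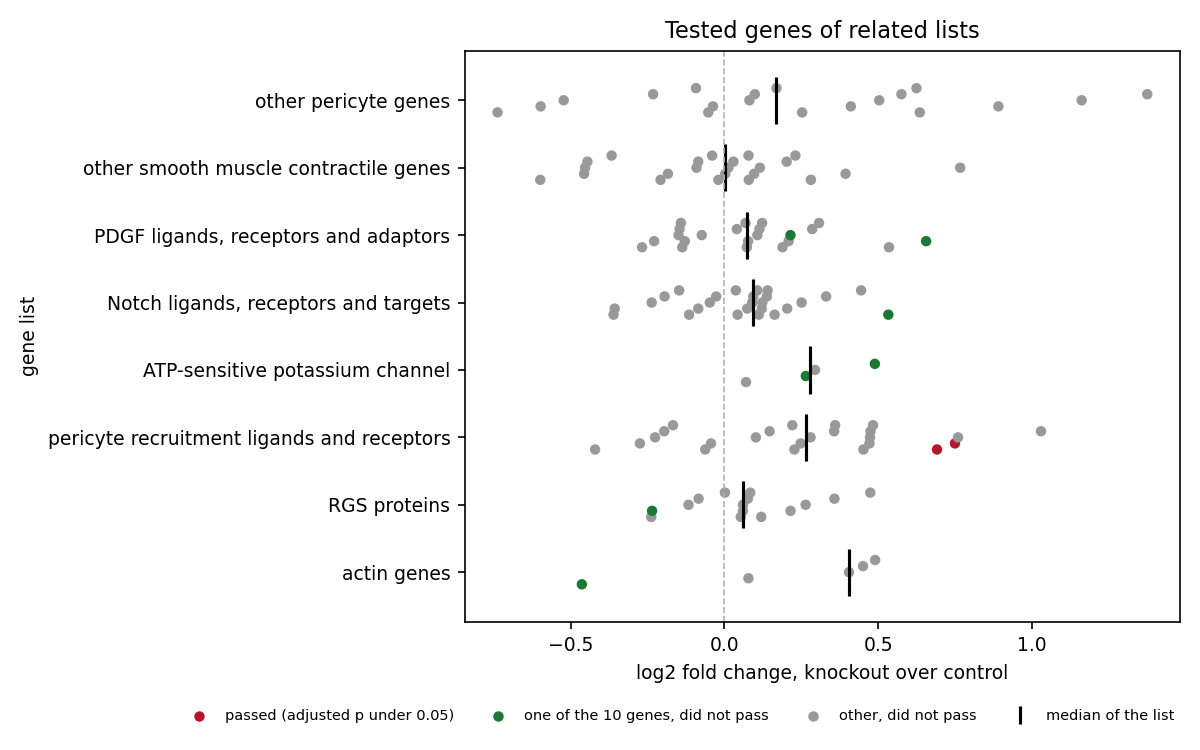
Log2 fold change, knockout over control, of each tested gene in 8 related lists, with the list median as a vertical bar, genes past the threshold in red and the 10 genes of this account in green. Red points are seen in the pericyte recruitment list alone, S1pr3 at 0.69 and Tgfbr2 at 0.75, and Acta2 is the 1 actin gene below 0.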

How the data were processed

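Polyadenylated RNA of 8 retina samples was sequenced. The submitters' processing notes name fastp, HISAT2, HTSeq and the build mm10; the labels state no version, annotation, strand setting or filter. Deposited by the authors were raw counts, whole numbers for each gene. The FPKM deposited by the authors equal the counts divided by the library total and 1 fixed length per gene, per a test on the files. Columns were matched to samples by title.

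Counts were fitted in edgeR 4.0.16 (R 4.3.3) with TMM scaling, filterByExpr (minimum count 10, minimum total 15) and a quasi-likelihood test of knockout against control without covariates, first tested on simulated data. Two-sided p-values were corrected across the 16861 genes tested (Benjamini-Hochberg, threshold 0.05). The standard error is the absolute log2 fold change over the square root of F, and 95% intervals follow from it. Alternatives used DESeq2 1.42.0, limma 3.58.1 (voom, and trend on log2(FPKM + 1)), other scalings and filters, single libraries left out, a block on the title numbers, and lens transcripts as a covariate or their 3 rich libraries left out. Named genes are the 10 members, from each list up to 4 genes past the threshold or the 2 of smallest p, all actins, and the 3 genes nearest to each of the 2 most variable members; others (Heyl, Tagln, Myl9, Cnn1, Abcc8, Rgs4, Angpt1, Angpt2, Tek, Vwf, Csf1r, Vtn, Cox4i2) were named after their values were seen. The members and lists were chosen with earlier results of these data known. Every pair of libraries in a group differed beyond counting noise (chi-square per degree of freedom 20.3 to 107.8), so none was treated as a duplicate. Counting error is covered by the fit, PCR duplicates are not.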

Additional observations from a re-analysis of the deposited data

Results flagged for a closer look

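In 4 of 76 groups of 4 libraries (the named genes and the summed markers in each genotype) 1 library lay far from the other 3 by Dixon's criterion, and chance gives about 1 in 20. Abcc9, the channel subunit of mural cells, was at 4.55 CPM in control 4 and at 1.82 to 2.13 CPM in the other controls. The Notch ligand Jag1 was at 188 CPM in control 4 and at 255 to 261 CPM in the other controls. The adhesion molecule Mcam was at 2.28 CPM in control 3 and at 3.40 to 3.54 CPM in the others. Lens transcripts summed to 2294 CPM in knockout 3 and to 4.10 to 29.6 CPM in the other knockouts.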

How the results depend on the processing

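The count of called members was 0 in every alternative run, with 0 to 6 of the 10 at an unadjusted p under 0.05; the 6, without control 4, compare with 33.1% of all genes in that fit. The count over all genes, 430, was 690 with no filter on low counts, 1296 in DESeq2, 228 in limma-trend on FPKM, 264 with the lens covariate, 15 without the 3 lens-rich libraries and 108 to 3209 with 1 library left out. Scaling by library totals alone turned the split of 203 higher and 227 lower into 207 and 131. With the replicate block the count over all genes was 228; the numbers do not pair the libraries (correlations of same-numbered deviations -0.04 to 0.22). Among members the sign turned for Des (-0.050 with the lens covariate; -0.075 to 0.47 with 1 library left out, negative without knockout 2 and without control 2), Abcc9 (-0.058 without the lens-rich libraries) and Myh11 (0.090 with the replicate block; -0.18 to 0.48 with 1 library left out, positive without knockout 1, knockout 2 or control 1; 0.070 in limma-voom, 0.00324 in limma-trend), in each case for a gene that was not called; the cause was not tested. Rgs5, Cspg4, Kcnj8, Notch3, Acta2, Pdgfrb and Pdgfb kept their sign in every alternative that gave a value. On the log2(FPKM + 1) scale, which understates the change of low genes, Pdgfb was at 0.22, Cspg4 at 0.065 and Notch3 at 0.087. The stricter filter removed Cspg4 and Des, and DESeq2 gave no adjusted p for Des. Scaling moved the median of all genes by at most 0.02 (log2). Genes under 1 CPM, here Cspg4 and Des, are limited by depth.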

Other observations

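For the 2 members of widest spread over the 8 libraries, the genes of most similar pattern were found by the root mean square difference of centred log2 CPM among 14681 genes of at least 1 CPM. Nearest to Acta2 were S100a4 (0.237), a calcium-binding protein of motile and mesenchymal cells, Dapl1 (0.275) and Awat2 (0.282), the last a wax synthase of sebaceous glands. S100a4 was at 3.98, 4.84, 6.74 and 6.09 CPM in the knockout and at 7.21, 10.9, 6.83 and 3.40 CPM in the control, highest in control 2 and lowest in control 4 as Acta2 nearly was. Nearest to Notch3 were Rab32 (0.208), a GTPase of melanosome transport, the predicted gene Gm5454 (0.218) and Rhov (0.302). These likenesses are descriptions over 8 libraries.

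Other listed pericyte markers differed in level by orders of magnitude. Vtn was at 391 ± 48.6 FPKM and Cox4i2 at 32.1 FPKM on average over the 8 libraries, against 1.83 ± 0.343 FPKM for Pdgfrb, and which cells their transcripts came from was not tested. Set against the endothelial markers, Rgs5 was at 0.171 to 0.185 of their summed CPM in the knockouts and at 0.225 to 0.331 in the controls, so that the groups did not overlap. For Pdgfrb, set against the same sum, the groups did overlap, with all 4 controls inside the range of the knockouts. The endothelial sum itself was 299 to 323 CPM in the knockouts and 220 to 308 CPM in the controls. How many of all genes would separate the groups over this sum was not counted. The Rgs5 ratio was chosen after its parts had been seen and was not tested.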
